A study of Mus musculus with 20 samples.

Results

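Coenzyme Q (ubiquinone) carries electrons within the inner mitochondrial membrane. It is made there from 4-hydroxybenzoate and a polyprenyl tail by a set of nuclear-encoded enzymes, several of which assemble into a complex. The 10 genes described here encode members of this route: Pdss1, Coq2, Coq3, Coq4, Coq5, Coq6, Coq7, Coq8a, Coq8b and Coq9. They were taken by gene symbol from the 39179 genes listed for each mouse, and all 10 were among the 14792 genes that passed the threshold on low counts. Coq7 had been chosen by its measured difference between the mouse lines in these data, and the other genes by their place in the same route. The line differences, including which genes passed the threshold between the lines, are therefore given below as descriptions and not as tests of these genes, and the question is how that of Coq7 compares with those of the other genes of the route.

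RNA was sequenced from the striatum, a forebrain region of motor control and reward, of 20 male mice. High-Active mice came from a line bred for long distances traveled in the home cage, and Control mice from an unselected line of the same founders, which were intercrossed from 8 inbred strains. All mice were from generation 17 and about 6.5 months old, and they were killed 2 hours after an intraperitoneal injection of either 0.25 mg/kg amphetamine, a stimulant, or its saline vehicle. In each line 5 mice received saline and 5 received amphetamine, which gave 4 groups named here by line and injection. There was 1 line of each kind, so a difference made by selection and one made by chance drift between 2 closed lines cannot be told apart. By the parents named in the labels, the 10 Control mice came from 8 families and the 10 High-Active mice from 5, although the methods of the study describe a separate family for each mouse.

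Between 32388971 and 53710713 counts per mouse fell on genes, and the 10 genes received from 284 to 3217 counts each in a mouse. Levels are given as log2 CPM (counts scaled to library size), on which a step of 1 is a doubling, and as RPKM, which is CPM divided by the exon length in kb, wherever the levels of genes are ranked. A gene was called at an adjusted p under 0.1 in edgeR's quasi-likelihood test. The threshold is that of the study, but the test is not, since the study reports likelihood ratios from edgeR with robust dispersions. Defining markers of striatal medium spiny neurons were present in every mouse, with a summed level between 3565 and 5676 CPM. The summed level of 9 markers of cortical excitatory neurons, a cell type the dissection was to leave out, ran from 296 to 829 CPM in Control saline, 607 to 830 in Control amphetamine, 163 to 342 in High-Active saline and 217 to 968 in High-Active amphetamine mice, with no marker at 0. In whole tissue, fewer cells of a type and less RNA per cell cannot be told apart.

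Coq7 encodes the hydroxylase of the penultimate step, which acts on demethoxyubiquinone. The gene lies on chromosome 7 at 118509659 to 118533356, on the minus strand of GRCm38, and the annotation shows no other gene overlapping it. Because the comparison of the lines turns on Coq7, the 250 bases before its start are shown, from RefSeq on GRCm38.p6 (chr7:118533357-118533606, minus strand). Capitals mark the CCAAT boxes, a short promoter element.

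Coq7: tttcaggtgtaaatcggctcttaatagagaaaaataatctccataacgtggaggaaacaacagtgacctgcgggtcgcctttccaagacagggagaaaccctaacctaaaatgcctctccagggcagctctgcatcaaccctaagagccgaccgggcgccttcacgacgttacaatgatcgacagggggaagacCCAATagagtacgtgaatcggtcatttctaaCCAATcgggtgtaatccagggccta

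The boxes begin 56 and 25 bases before the start, both in the direction of the gene. The window had a GC content of 49.6% and 13 CpG dinucleotides, against medians of 52.4% and 6 over 32851 windows of the same length. All letters were sought on both strands, and CCAAT occurred in 33.8% of all windows. Of the 8 Coenzyme Q genes with a window in the RefSeq table, 3 held CCAAT, namely Coq6, Coq7 and Coq8a. GGGCGG, the core of an SP1 site, occurred in 4 of the 8, Coq3, Coq6, Coq8a and Coq9, and in 32.7% of all windows. The letters CCGGAAG of GABPA, a regulator of mitochondrial genes, were in none of the 8 and in 6.91% of all windows. A gene was counted if any of its windows held the letters, and Coq3 and Coq8a had further windows. The percentages count single windows, so the shares are in unlike units. The other letters sought were AAGATGGC for YY1, TATAAA and CACGTG, and the Coq7 window held none of them. The searched letters do not overlap each other in the Coq7 window, and a match shows the presence of these letters only.

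Coq7 was higher in every High-Active mouse than in every Control mouse. In Control saline mice it was at 3.68, 3.79, 3.82, 3.85 and 3.88 log2 CPM, and in Control amphetamine mice at 3.60, 3.73, 3.74, 4.00 and 4.07. In High-Active saline mice the values were 4.28, 4.51, 4.53, 4.57 and 4.77, and in High-Active amphetamine mice 4.30, 4.33, 4.34, 4.41 and 4.53. The lowest High-Active mouse thus lay above the highest Control mouse, while the treatments overlapped within each line. On the linear scale Coq7 averaged 22.0 CPM ± 2.43 in High-Active and 14.1 CPM ± 1.42 in Control mice (SD, n = 10 each). Among the 14792 genes tested, 21 (0.142%) had every High-Active mouse above every Control mouse and 18 (0.122%) had every one below. This share is the background of the separation of Coq7, which was chosen for its line difference.

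**Figure D1:**
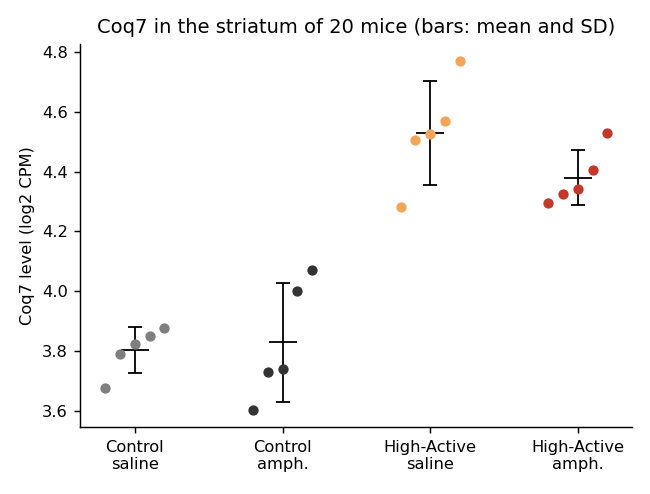
Level of Coq7 in log2 CPM (vertical axis) in the 4 groups (horizontal axis), with 1 point per mouse and bars for the mean and SD of 5 mice. All 10 High-Active mice lie between 4.28 and 4.77, above the Control mice at 3.60 to 4.07.

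The line difference of Coq7, averaged over both treatments, was a log2 fold change of 0.64 (SE 0.06, 95% interval 0.51 to 0.77), or 1.56-fold. It was 0.74 (SE 0.09) among saline-injected mice, 1.66-fold, and 0.54 (SE 0.09) among amphetamine-injected mice, 1.46-fold. Of the genes tested, 655 (4.43%) had a line difference of larger size in either direction. By family, the mean level of Coq7 ran from 3.70 to 4.00 log2 CPM in the 8 Control families. In the 5 High-Active families it ran from 4.34 to 4.55. The gap between the families follows from the separation of the mice and adds nothing to it. The size moved between 0.61 and 0.67 when any single mouse was left out. With the marker scores of cortical excitatory neurons and oligodendrocytes in the model it was 0.56 (SE 0.07), and with counts summed over families it was 0.60 (SE 0.05).

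None of the other 9 genes was called between the lines. With Coq7 this is 1 of 10 genes, against 14.5% of all genes tested (2149 of 14792), and since the choice of genes used this contrast nothing is read from the count. The 9 differences ran from -0.14 for Pdss1 to 0.11 for Coq3, with a median of 0.02 (all genes tested, -0.00093). Their 95% intervals lay between -0.30 and 0.41 and all ended below the lower bound of the Coq7 interval. Within saline-injected and within amphetamine-injected mice this held for 8 of the 9, the exception being Coq2, whose interval reached 0.59 and 0.48 where that of Coq7 began at 0.55 and 0.35. The mean log2 CPM of the 9 genes was 4.42 ± 0.07 in Control and 4.42 ± 0.08 in High-Active mice (SD, n = 10 each). The difference of Coq7 from this mean ran from -0.88 to -0.34 in Control and from -0.16 to 0.30 in High-Active mice. Gene length adds a constant to this difference, so it compares mice and does not rank the level of Coq7 among the genes.

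**Figure D2:**
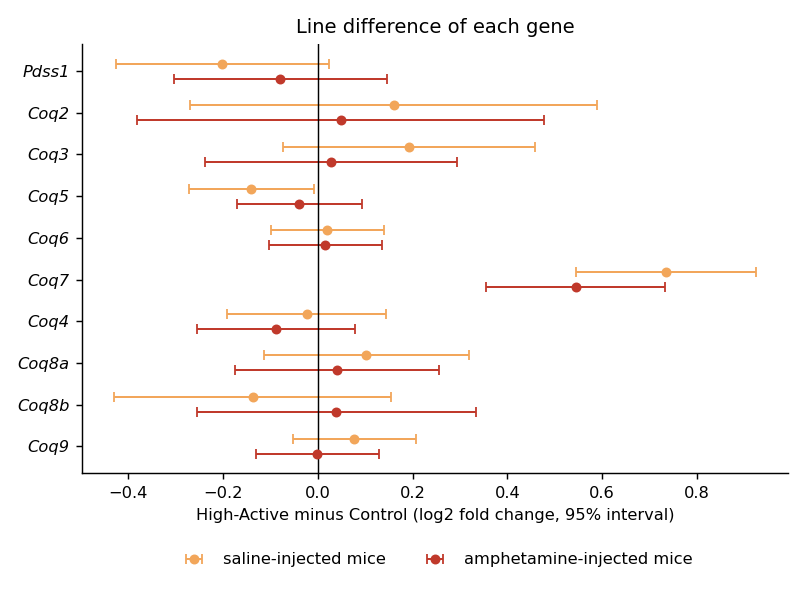
High-Active minus Control difference of each gene (horizontal axis, log2 fold change) with its 95% interval, in saline-injected and in amphetamine-injected mice (5 per group). The points of Coq7 lie at 0.74 and 0.54, and the other 9 genes lie between -0.20 and 0.19.

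The tail and its attachment are made by Pdss1 and Coq2. Pdss1 encodes a subunit of the synthase that builds the polyprenyl tail, and its line difference was -0.14 (SE 0.08), with 5 of the 10 High-Active mice below every Control mouse. Coq2 encodes the transferase that joins tail and ring, with a line difference of 0.10 (SE 0.15). Coq2 was the most variable of the 10 genes within groups, with an SD of 0.35 on the log2 scale, larger than that of 84.1% of the genes tested. Coq2 was at 5.03, 5.11, 5.47, 5.58 and 5.83 log2 CPM in Control saline and at 5.00, 5.01, 5.24, 5.71 and 5.76 in Control amphetamine mice. In High-Active saline mice Coq2 was at 5.12, 5.38, 5.75, 5.80 and 5.80, and in High-Active amphetamine mice at 4.75, 5.44, 5.45, 5.46 and 5.86. The ranges of the 4 groups overlapped. Mice of the same line that shared both parents differed by a median of 0.19 in Coq2 (8 pairs) and other mice of the same line by 0.37 (82 pairs), a ratio of 0.51, where the median ratio of all genes tested was 1.01. Coq9 had a ratio of 0.47 and Coq7 of 1.52. Treatment was not subtracted, and every littermate pair except mice 499 and 871 set an amphetamine mouse against a saline mouse. The ratios therefore mix kinship with treatment. Pairs share mice, and these ratios are given without a test.

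The ring is modified by the methyltransferases Coq3 and Coq5 and by the monooxygenase Coq6 in addition to Coq7. Coq3, the O-methyltransferase, had a line difference of 0.11 (SE 0.09). Coq5, the C-methyltransferase, had -0.09 (SE 0.04), with 4 High-Active mice below every Control mouse and only 1 above the Control median. Among saline-injected mice alone the difference of Coq5 was -0.14 (SE 0.06), and its 95% interval of -0.27 to -0.01 did not reach 0. It was not called there, where 3.74% of the genes tested were called, and among amphetamine-injected mice, where 1.3% were called, it was -0.04 (SE 0.06). Coq6 differed by 0.02 (SE 0.04) and was the steadiest gene of the route, with an SD of 0.08 within groups that was larger than that of 11.7% of the genes tested. Coq6 lay between 3.88 and 4.16 log2 CPM in all 20 mice.

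The remaining genes encode proteins that organise the complex or are needed for it. Coq4, needed for assembly of the complex, had a line difference of -0.06 (SE 0.06). Coq9 encodes a lipid-binding partner of the Coq7 protein, and its line difference was 0.04 (SE 0.04), with 1 High-Active mouse below every Control mouse and none above. The atypical kinases Coq8a and Coq8b differed by 0.07 (SE 0.07) and -0.05 (SE 0.10). Coq4, Coq6, Coq8a, Coq9 and Pdss1 overlap a protein-coding gene on the opposite strand. The libraries were made with a stranded kit, but the strand setting of the counting is not given in the sources used here, so reads within such overlaps cannot be assigned with certainty.

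**Figure D3:**
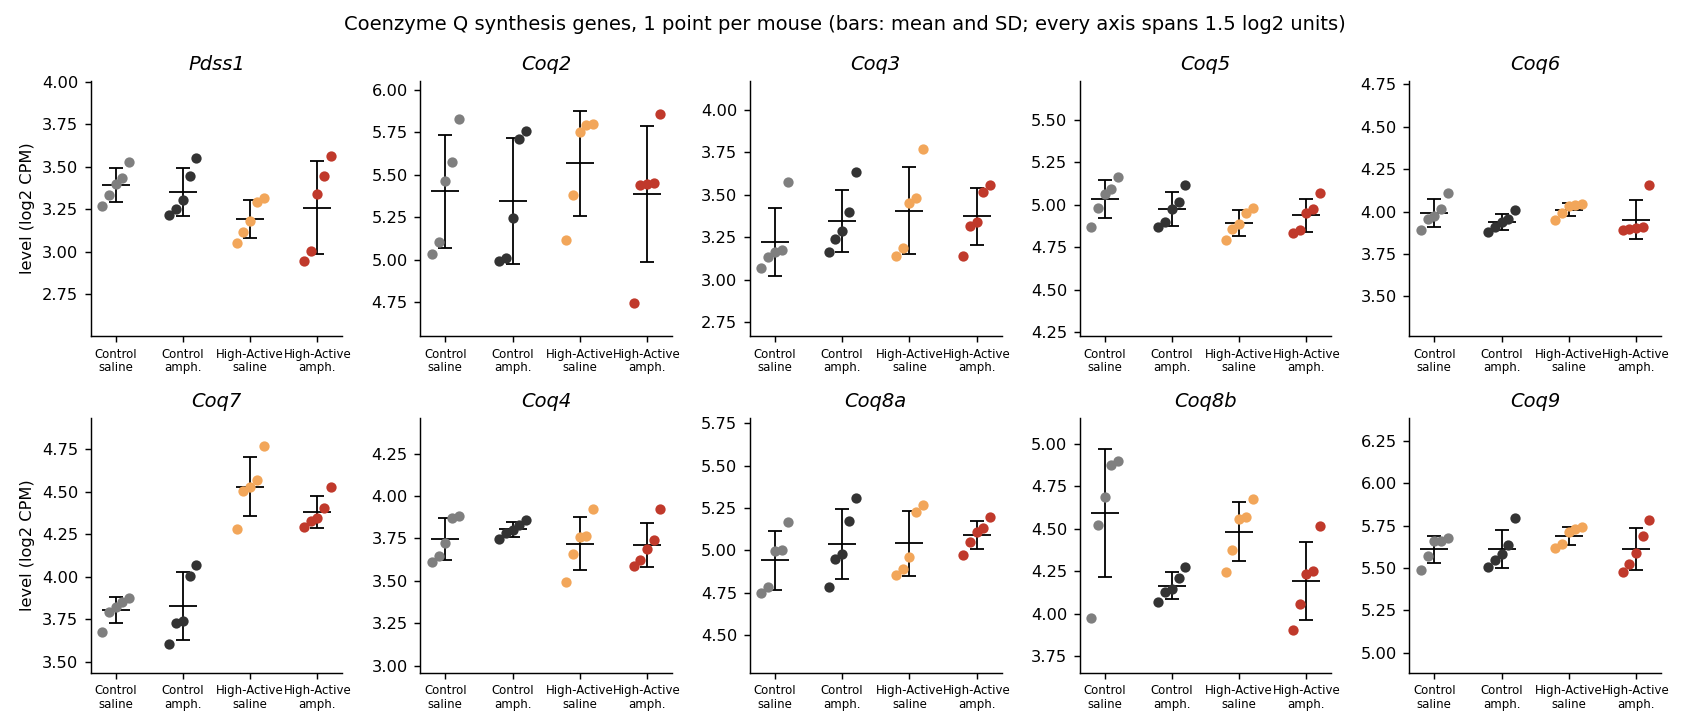
Level of each of the 10 genes in log2 CPM (vertical axes, each spanning 1.5 log2 units) in the 4 groups, with 1 point per mouse and bars for the mean and SD of 5 mice. The lines are apart in the panel of Coq7 and overlap in the other 9 panels.

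Per length, Coq2 and Coq9 were the most abundant of the genes and Pdss1 and Coq7 the least. In Control mice the mean levels were 16.2 RPKM ± 3.75 for Coq2, 16.02 ± 1.04 for Coq9, 10.6 ± 0.76 for Coq5, 6.04 ± 0.79 for Coq8a and 4.96 ± 0.24 for Coq6 (SD, n = 10). Coq4 followed at 4.02 RPKM ± 0.26, Coq8b at 3.81 ± 0.94, Coq3 at 3.26 ± 0.46, Pdss1 at 2.43 ± 0.20 and Coq7 at 2.19 ± 0.22 (SD, n = 10). Neighbours in this order whose means differed by less than the larger SD were Coq2 and Coq9, Coq4 and Coq8b, and Coq8b and Coq3. In High-Active mice the order was the same for the first 8 genes, the same 3 pairs of neighbours differed by less than the larger SD, and Coq7 stood at 3.42 RPKM ± 0.38 above Pdss1 at 2.21 ± 0.31 (SD, n = 10). There the gap between Coq3, at 3.52 RPKM ± 0.51, and Coq7 was also smaller than the larger SD. These levels depend on the exon length in the annotation, which for Coq7 was 6434 bases, the longest of the 10.

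None of the 10 genes was called for amphetamine in the quasi-likelihood test, in which 0.0% of all genes tested were called. Without adjustment, 1844 genes (12.5%) had p under 0.05, and Coq8b was the only one of the 10 among them. DESeq2 called 391 genes and edgeR's likelihood-ratio test with robust dispersions called 458, and in both Coq8b was the single gene of the 10 that was called. The study itself reported fewer genes for amphetamine than either of these counts.

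Coq8b was at 3.98, 4.52, 4.69, 4.87 and 4.90 log2 CPM in Control saline mice, and at 4.07, 4.13, 4.14, 4.21 and 4.28 in Control amphetamine mice. In High-Active saline mice Coq8b was at 4.24, 4.37, 4.55, 4.57 and 4.68, and in High-Active amphetamine mice at 3.91, 4.06, 4.23, 4.25 and 4.52. In Control mice 4 of the 5 saline values lay above all amphetamine values, and the fifth, of mouse 883, lay below all of them. In High-Active mice the treatments overlapped. The amphetamine effect over both lines was a log2 fold change of -0.37 (SE 0.10, 95% interval -0.58 to -0.17, adjusted p = 0.198), with a value of -0.46 (SE 0.14, adjusted p = 0.690) in Control and -0.29 (SE 0.14, adjusted p = 0.608) in High-Active mice. Without adjustment, p was under 0.05 for Coq8b and none of the other 9 in Control mice (6.35% of all genes tested) and for none of the 10 in High-Active mice (8.43%). The lines did not differ in this effect beyond the spread (interaction 0.18, SE 0.20, 95% interval -0.24 to 0.59).

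The call for Coq8b depended on the test and on single mice. The adjusted p was 0.0380 with DESeq2 and 0.00189 with the likelihood-ratio test, 0.0744 without Control saline mouse 883 and 0.0680 without High-Active amphetamine mouse 415, and 0.146 or more when any other mouse was left out. In 5 of the 6 families with mice in both treatments Coq8b was lower after amphetamine, with differences from -0.73 to 0.01. Coq6 and Coq9 were also lower in 5 of the 6. With family as a fixed block the effect on Coq8b was -0.40 (SE 0.08, adjusted p = 0.976, quasi-likelihood test). Markers of cortical excitatory neurons stood higher after amphetamine in 8 of 9 cases (median log2 fold change 0.95, none called). With the marker scores in the model the effect on Coq8b was -0.26 (SE 0.13, adjusted p = 0.810).

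For the other 9 genes the amphetamine effects ran from -0.11 for Coq2 to 0.07 for Coq8a. That of Coq7 was -0.06 (SE 0.06, 95% interval -0.20 to 0.07, adjusted p = 0.745). Within the lines it was 0.03 (SE 0.09) in Control and -0.16 (SE 0.09, adjusted p = 0.680) in High-Active mice. The interaction of Coq7, which is also the change of its line difference between saline and amphetamine, was -0.19 (SE 0.13, 95% interval -0.46 to 0.08) and was not called. None of the 10 genes was called for the interaction in the quasi-likelihood test, in which 0.0% of all genes tested were called, and none in DESeq2 or the likelihood-ratio test. Without adjustment 440 genes (2.97%) had p under 0.05 for the interaction, none of them among the 10.

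**Figure D4:**
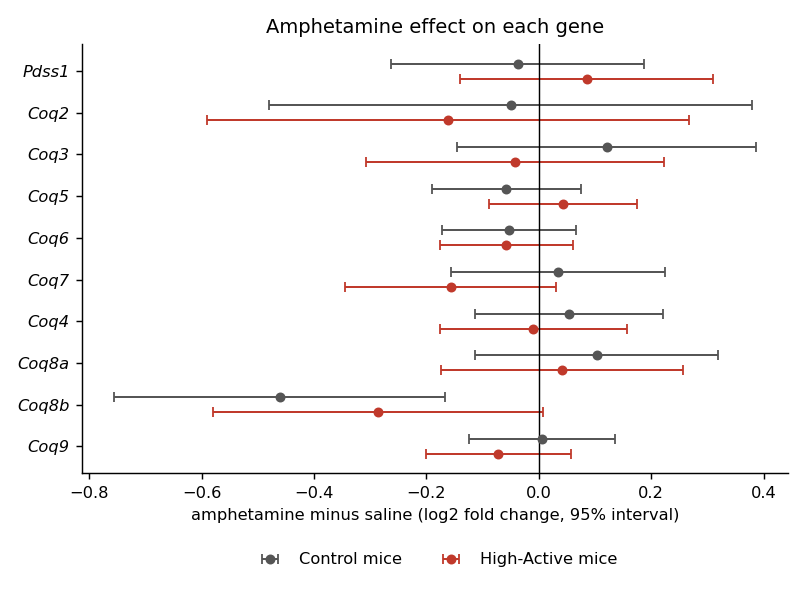
Amphetamine minus saline difference of each gene (horizontal axis, log2 fold change) with its 95% interval, in Control and in High-Active mice (5 per group). Coq8b has the lowest point in both lines, at -0.46 and -0.29, and none of these differences was called.

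After subtraction of each group's mean, the median correlation over the 45 pairs of genes was 0.05 (20 mice, which share library depth and tissue composition between genes). The highest were Coq6 with Coq8b (r = 0.67) and Coq9 with Pdss1 (r = 0.51), and the lowest was Coq4 with Coq7 (r = -0.54). Coq7 also varied against the score of cortical excitatory neuron markers (r = -0.51) and Coq4 along with it (r = 0.60). The genes of the whole table most like Coq7 by this measure were AI606473 (r = 0.81), Vps35l (0.80), Ttc39aos1 (0.78), Gdpd2 (0.77) and Phka1 (0.75), where 95% of the genes had an r under 0.47. Without the subtraction, so that the line difference enters, they were Itpr2 (0.90), Rps15a-ps7 (0.89), Mroh8 (0.89), Iqck (0.88) and Vps35l (0.88). None of the other 9 Coenzyme Q genes was in either list.

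Vps35l and Iqck lie near Coq7 on chromosome 7. Within 1 Mb on either side of Coq7, counted to the nearer end of a gene, 26 other genes were listed and 15 were tested, of which 4 were called higher and 0 lower between the lines (26.7%, against 14.5% of all genes tested). The called genes were Iqck, with a log2 fold change of 0.93 (SE 0.16), Itpripl2 with 0.39 (SE 0.13), Arl6ip1 with 0.18 (SE 0.05) and Vps35l, a component of an endosomal sorting complex, with 0.13 (SE 0.03). Iqck was at 1.43 CPM ± 0.46 in Control and at 2.77 CPM ± 0.63 in High-Active mice (SD, n = 10 each), and 7 of the 10 High-Active values exceeded the highest Control value. The nearest tested gene was Tmc7, 2.49 kb before the start of Coq7, with 0.17 (SE 0.08, not called). Differences were positive in 8 and negative in 7 of the 15 genes, with a median of 0.03. With the marker scores in the model 2 of the 15 were called, where 487 of all 14792 genes were, and with counts summed over families also 2, where 609 of all were.

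**Figure D5:**
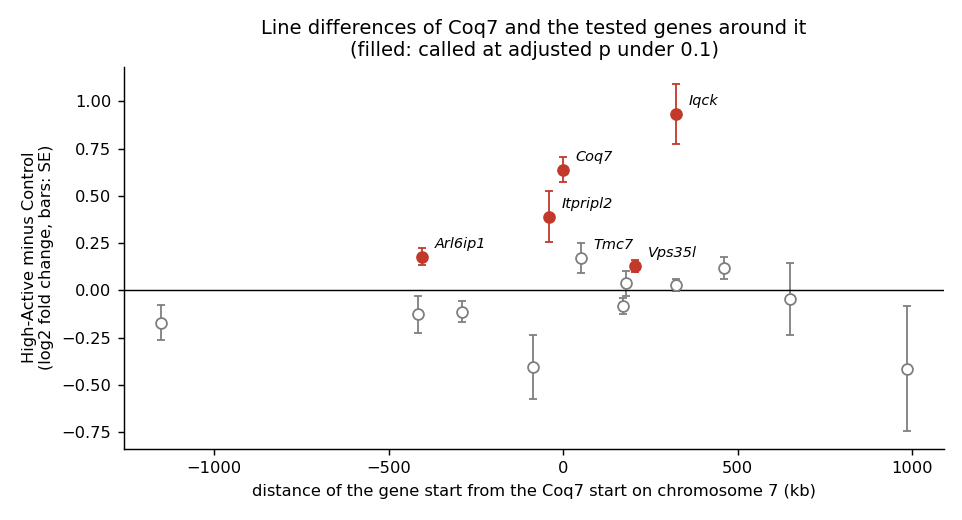
Line difference (vertical axis, log2 fold change, bars for the SE) of Coq7 and of the 15 tested genes whose nearer end lies within 1 Mb, by the distance of their starts from the start of Coq7 in kb (horizontal axis). Filled points were called, and Iqck at 0.93 is the only neighbour with a larger difference than Coq7 at 0.64.

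Of 38 further genes that supply, regulate or use Coenzyme Q, 35 were tested. Of these 35, 4 were called between the lines, against 14.5% of all genes tested. Of the 15 tied to Coenzyme Q itself or to the kinase family of Coq8a and Coq8b, 12 were tested (Hpd, Hpdl and Tat were not), and 2 were called higher and none lower in High-Active mice (7.63% of all genes tested were called higher and 6.9% lower). Adck1, a mitochondrial relative of the Coq8 kinases, was among the called genes with 0.28 (SE 0.04). Pdss2, the partner subunit of Pdss1, differed by 0.08 (SE 0.06, not called). Of 9 genes of the mevalonate pathway, which makes the building blocks of the tail, Ggps1 was called lower with -0.19 (SE 0.05) and none higher. All 9 differences were below 0, with a median of -0.08. Of 14 genes whose enzymes pass electrons to Coenzyme Q, such as subunits of succinate dehydrogenase, 1 was called higher and none lower. The called gene was Chdh (choline dehydrogenase), with 0.30 (SE 0.11, adjusted p = 0.0916, quasi-likelihood test). No gene of these 3 lists was called for amphetamine or the interaction. With the marker scores in the model 2 of these genes were called between the lines in place of 4, and with counts summed over families also 2, while over all genes 487 and 609 were called in place of 2149. Without High-Active saline mouse 483, 7 of these genes and 2469 of all were called.

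Cell type markers also differed between the lines. Of the 9 cortical excitatory neuron markers, 3 were called lower in High-Active mice (Neurod2, Slc17a7 and Tbr1) and none higher, with a median of -0.74. Over all genes tested, 7.63% were called higher and 6.9% lower. Of 8 oligodendrocyte markers, Mbp and Mobp were called higher and none lower, with Opalin at -0.23 (SE 0.19, not called). Of 5 astrocyte markers, Aldh1l1 and Gja1 were called higher and none lower, with Gfap at -0.33 (SE 0.20, not called). Of 5 microglia markers, Aif1 and Csf1r were called lower and none higher. The 5 differences were positive in 2 and negative in 3, with a median of -0.07 and P2ry12 at 0.04 (SE 0.08, not called). None was called among 5 endothelial markers (median 0.06), nor among 8 medium spiny neuron markers, of which 7 had values below 0 (median -0.13). None of 5 choroid plexus markers was called either, but all 5 had values above 0 with a median of 0.86, and their summed level ran from 21.9 to 735 CPM in Control and from 32.4 to 904 CPM in High-Active mice. Within groups Coq7 had r = 0.41 with the choroid plexus score (20 mice). No marker of any list was at 0 in any mouse. The line difference of Coq7 was 0.56 with the cortical and oligodendrocyte scores in the model. The part of cell type content in the line difference of Coq7 was not tested, for these lists or the others.

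Home-cage distance, the trait under selection, was compared with each gene within each line. It ran from 0.1998 to 0.4742 km/day in Control and from 0.5833 to 3.1846 km/day in High-Active mice. None of the 20 relations passed an adjusted p of 0.1 (lowest 0.364 for Pearson's r and 0.766 for Spearman's rho, permutation tests, two-sided), and 8 of the 20 changed sign without the 2 mice farthest from the median distance. For Coq7, r was -0.54 in Control (permutation p = 0.102, adjusted 0.512, rho -0.25, permutation p = 0.494, n = 10), and it became 0.30 without those 2 mice (407 and 411). In High-Active mice the r of Coq7 was -0.05 (permutation p = 0.905, adjusted 0.993, rho -0.01, permutation p = 1.0, n = 10) and 0.27 without mice 483 and 905. Coq2 had r = -0.76 in High-Active mice (permutation p = 0.0214, adjusted 0.364, rho -0.50, permutation p = 0.146, n = 10), which was -0.13 without mice 483 and 905 and so rests on those mice. Coq8a had r = -0.66 in Control mice (permutation p = 0.0364, adjusted 0.364, rho -0.67, permutation p = 0.0387, n = 10) and -0.46 without mice 407 and 411.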

How the data were processed

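The members and lists were chosen with earlier results of these data known. Per the labels and the methods of the study, the authors aligned 100 bp read pairs to GRCm38 with TopHat2 2.0.10, counted them on Ensembl genes with HTSeq 0.6.1 and deposited raw counts per gene for each mouse. Special classes of htseq-count (15.97 to 17.49% of all counts) were left out. Genes over 1 CPM in at least 3 mice (14792) were normalized by TMM and fitted with edgeR 4.0.16 (R 4.3.3) as 4 group means with the quasi-likelihood test. The p-values were adjusted by Benjamini-Hochberg over all of these genes, with a threshold of 0.1. The SE is the log2 fold change divided by the square root of F. Log2 CPM used a prior count of 2, and RPKM the summed exon length of GENCODE M21. The fit was tested on simulated data. Relations with home-cage distance used 100000 permutations. No library duplicated another of its group, since the lowest chi-square per gene between mice of a group was 16.7, where sampling noise gives 1. Libraries of different groups were not compared in this way. Alternatives were RLE normalization, DESeq2 1.42.0, the likelihood-ratio test, other filters, limma-voom 3.58.1 with a family block, family as a fixed block, counts summed over families, marker scores and leaving out each mouse. Genes named are the 10 members, neighbours of Coq7 and listed genes that were called, the nearest tested gene, and the 5 genes most like Coq7 by each measure. The values of 1 called gene of these lists are not reported here.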

Additional observations from a re-analysis of the deposited data

Results flagged for a closer look

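In 2 of 40 groups of 5 mice, formed by the 10 genes and 4 groups, 1 mouse stood apart from the other 4 (gap over range above Dixon's 95% critical value of 0.71), and chance gives this in about 1 in 20 groups. Coq3 was at 3.58 log2 CPM in Control saline mouse 411, where the other 4 mice were at 3.07 to 3.18. Its littermate in the Control amphetamine group, mouse 409, was at 3.64, the highest Control value. Coq6 was at 4.16 in High-Active amphetamine mouse 415, where the other 4 mice were at 3.89 to 3.91. The line and amphetamine effects of both genes stayed uncalled without these mice.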

How the results depend on the processing

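Of 1126 values computed under another setting, 1097 stayed on their side of the threshold or within 1.5 times the count, and no called value changed sign. The line difference of Coq7 lay between 0.54 and 0.74 over the settings and between 0.61 and 0.67 with each mouse left out, and 0 of the other 9 genes was called in any of them. The 2149 genes called between the lines became 487 with marker scores as covariates and 609 with counts summed over families (1381 to 2535 with each mouse left out, 1381 without High-Active amphetamine mouse 415, 1400 without Control saline mouse 883 and 1405 without High-Active saline mouse 871), the near neighbours of Coq7 went from 4 to 2 and 2 (3 to 5), and the other pathway genes from 4 to 2 and 2 (3 to 7). For amphetamine, 0 genes became 391 with DESeq2, 458 with the likelihood-ratio test and 1 with family as a fixed block (0 to 339, above 0 without mice 415, 411, 197, 883 and 457, at 339, 128, 33, 20 and 3), and the 10 genes gave 1, Coq8b, with DESeq2 (log2 fold change -0.37) and 1 with the likelihood-ratio test (-0.41) (0 to 1 with each mouse left out). For the interaction, 0 genes became 6 with the likelihood-ratio test and 1 with the fixed block (0 to 1, the 1 without Control saline mouse 411). Causes were not tested. Summing over families leaves 13 libraries in place of 20. The numbers in the labels are those of single animals and occur in 1 group each, so mice were paired by family alone, in the 6 families with mice in both treatments that carry the fixed block. The p-values take mice as independent although littermates were used.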
